A study of Mus musculus with 6 samples.

Results

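The heme synthesis enzymes are the 8 genes Alas1, Alas2, Alad, Uros, Urod, Cpox, Ppox and Fech, named from the known pathway and not from their values. They were read by 19 probe sets that carried a single gene symbol, out of 45037 probe sets that named 18193 genes on the array. All 8 genes were measured, and no probe set was left out for low signal. Each mouse gave 1 Affymetrix array, hybridised with labelled RNA from CD71+Ter119+ erythroid progenitors sorted from bone marrow. CD71 takes up transferrin-bound iron, and Ter119 is an antigen on the surface of red cells and their precursors. All 6 mice were female and 6 weeks old. The 3 control mice were Bcl11a +/+, and the 3 knockout mice were Bcl11a fl/fl EpoR-Cre+. In the knockouts Cre is expressed from the erythropoietin receptor gene, so other cells in the sort could still carry an intact Bcl11a. The labels give Cre for the knockouts alone, so Cre itself and the altered receptor allele cannot be told apart from the loss of Bcl11a.

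Heme is built in a fixed chain of steps that starts and ends in the mitochondrion and runs through the cytosol in between. 5-aminolevulinate synthase starts the chain from glycine and succinyl-CoA, as the ubiquitous form Alas1 or as the X-linked erythroid form Alas2, and its activity sets the pace. Alad joins 5-aminolevulinate into porphobilinogen, Uros closes the ring of uroporphyrinogen III, Urod trims its side chains to coproporphyrinogen III, and Cpox and Ppox oxidise that to protoporphyrin IX. Fech inserts ferrous iron to give heme. The step between Alad and Uros was not analysed here. Erythroblasts make most of the heme of the body, for hemoglobin.

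By their brightest probe sets, the enzymes of the middle of the pathway stood higher in the knockout mice, while those of its ends overlapped. By the brightest probe set of each gene, all 3 knockout values lay above all 3 control values for Alad, Uros, Urod, Cpox and Ppox, with log2 changes between 0.48 and 0.71. Alas1, Alas2 and Fech had changes between -0.11 and 0.06, with groups that overlapped. Fech was mixed, since 2 of its 3 dimmer probe sets had all knockouts above all controls. None of the 19 probe sets passed the test across the whole array (limma, adjusted p of 0.05, lowest adjusted p = 0.0882), where 0.14% of all probe sets rose and 0.00666% fell (0.147% in either direction). By the brightest probe set of each gene, 0.209% of all genes rose and 0.0055% fell. At an unadjusted p under 0.05, 11 of the 19 were higher in the knockout and 0 were lower. The share of all probe sets at that limit is not given here, so this count has nothing to be read against. With an intensity trend and robust moderation, which lets the variance depend on brightness, 11 of the 19 rose and 0 fell. That setting called 2.68% of all probe sets as risen and 0.531% as fallen. By gene it called 5 of the 8 enzymes as risen and 0 as fallen, against 3.61% and 0.605% of all genes.

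Whole-array values touch these results in a few ways. The deposited values are linear intensities with array medians between 67.5 and 70.9 and maxima between 38113 and 40360, and changes are given on the scale log2(intensity + 16). Of 7 probe sets for Bcl11a, 0 passed. Its brightest read 1492 ± 53.9 in control and 1298 ± 115 in knockout mice (SD, n = 3), with changes of the 7 between -0.40 and 0.32. Whether those probes lie in the deleted part is unknown here, so they do not check the genotype. The sort was checked against erythroid markers. Slc4a1, or band 3, read 20977 ± 1948 in control and 24238 ± 847 in knockout mice (SD, n = 3), and Tfrc, which encodes CD71, read 14288 ± 1433 and 18544 ± 1455. Neutrophil genes were also bright, as S100a8 read 39933 ± 375 and 38723 ± 634, and that transcript marks granulocytes and not red cells.

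Some of the promoters are shown because Gata1, an activator of erythroid genes, binds GATA motifs, and because BCL11A is known to bind TGACCA at fetal globin promoters. RefSeq starts on mouse build GRCm38.p6 were held for 7 of the 8 genes, at 10 starts, and the entry for Fech is missing. The 250 bases before each start were searched on both strands for the GATA form AGATAA with its variant AGATAG, the GATA form TGATAA with its variant TGATAG, the repressor motif TGACCA and the motif CCNCNCCC. The last is bound by Kruppel-like factors such as Klf1, and its matches could overlap each other. Cpox carried a pair of GATA matches that share 1 base, both read on the opposite strand, 81 to 91 bases before the start. They are the capitals in the 250 bases at chr16:58669958-58670207 on the plus strand:
Cpox: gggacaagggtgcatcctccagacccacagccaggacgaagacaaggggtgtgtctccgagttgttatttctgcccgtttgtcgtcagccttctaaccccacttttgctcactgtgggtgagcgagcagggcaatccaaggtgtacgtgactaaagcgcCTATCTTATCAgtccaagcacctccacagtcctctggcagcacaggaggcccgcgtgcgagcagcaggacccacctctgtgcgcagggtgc

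A GATA match each of Alas2 and Uros and the single TGACCA match are shown in windows of 30 bases, with the match in capitals. That of Alas2 lies 81 to 86 bases before the start, at chrX:150547319-150547348 on the plus strand. The 250 bases searched before this start overlap the annotations of Apex2 and Mir3620. That of Uros nearest to a start lies before the downstream one of its 2 starts, at chr7:133702551-133702580 on the minus strand. The TGACCA of Alad lies 121 to 126 bases before the downstream one of its 2 starts, at chr4:62520018-62520047 on the minus strand.
Alas2 GATA: ctactttgctttTTATCTttagcagaggcc
Uros GATA: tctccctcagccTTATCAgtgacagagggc
Alad TGACCA: ggccgcgcgagcTGACCAgtgatccggaga

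Of the 7 genes, 3 held a GATA match at any start, against 29.7% of 27025 genes in the promoter table. TGACCA was found in 1 of the 7, against 13.0% of genes, and CCNCNCCC in 4 of the 7 (Alas1, Alas2, Alad and Uros), against 48.5%. Urod and Ppox held none of these motifs in this window. The 3 genes with a GATA match had log2 changes of -0.06 (Alas2), 0.57 (Uros) and 0.48 (Cpox). The 4 without one had changes of -0.11 (Alas1), 0.71 (Alad), 0.49 (Urod) and 0.63 (Ppox).

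The pathway begins with the synthases. Alas2, whose loss in humans causes X-linked sideroblastic anemia, was read by 1 probe set. Its intensities were 26006, 23736 and 25039 in control mice 1 to 3 and 24010, 23634 and 24056 in knockout mice 1 to 3. The groups overlapped, since control mouse 2 lay within the knockout range. The log2 change was -0.06, with a 95% interval from -0.28 to 0.17 (limma, adjusted p = 0.844). The knockout mice also lay closer together than the controls, with SDs of 231 and 1139.

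Alas1, the housekeeping synthase that is repressed by heme in the liver, was the dimmest member by its brightest probe set. That probe set read 1447, 1604 and 1535 in control mice 1 to 3 and 1746, 1371 and 1172 in knockout mice 1 to 3. The knockout mice spread on both sides of the controls, with knockout mouse 1 highest and knockout mouse 3 lowest of all 6. The log2 change was -0.11, with an interval from -0.50 to 0.27 (adjusted p = 0.822), and the second probe set had a change of -0.15. Without knockout mouse 3 the change of the brighter probe set was 0.02, so its direction rests on that mouse.

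Whether the erythroid and the ubiquitous synthase changed alike was asked mouse by mouse, as the log2 value of Alas2 minus that of Alas1. This difference was higher by 0.05 in the knockouts (exact permutation test over mice, two-sided, p = 0.9). Designs of 3 against 3 mice cannot give an exact p below 0.1. The sign turned to -0.01 after cyclic loess normalization, -0.02 without control mouse 2 and -0.08 without knockout mouse 3, so these arrays do not settle it.

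**Figure D1:**
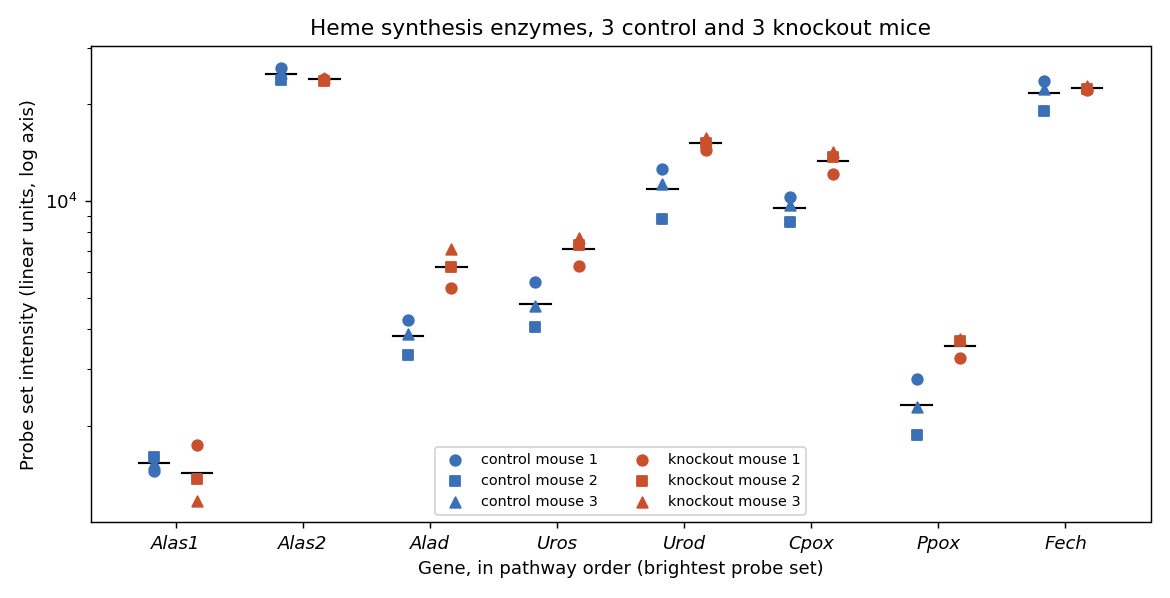
Intensity of the brightest probe set of each enzyme (linear units on a log axis) in 3 control mice (blue) and 3 knockout mice (orange), with 1 symbol per mouse and black bars for the group means. The groups are apart for Alad, Uros, Urod, Cpox and Ppox and overlap for Alas1, Alas2 and Fech; heights of different genes do not compare amounts of RNA.

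The cytosolic enzymes come next. Alad, a zinc enzyme that is inhibited by lead, had intensities of 4254, 3311 and 3875 in control mice 1 to 3 and of 5382, 6252 and 7114 in knockout mice 1 to 3. The lowest knockout mouse stood above the highest control. The ratio of the means was 1.64, and the log2 change was 0.71 ± 0.15 (SE; limma, adjusted p = 0.181, and adjusted p = 0.0034 with an intensity trend and robust moderation). Alad had the largest change of the 8 genes on its brightest probe set.

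A much dimmer probe set of Alad showed a larger gap. It read 148, 68.2 and 68.4 in control mice 1 to 3 and 353, 398 and 403 in knockout mice 1 to 3, a ratio of 4.05. Its log2 change of 1.93 ± 0.27 (SE, adjusted p = 0.0882) was the largest of the 19 probe sets. In the fit without an intensity trend, it was also the only one of them to pass when a mouse was left out. That was only without control mouse 1, its highest control, with a change of 2.25 (limma, adjusted p = 0.0124). Which part of the transcript each of them reads is unknown here.

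Uros, the enzyme deficient in congenital erythropoietic porphyria, had intensities of 5594, 4071 and 4723 in control mice 1 to 3 and of 6298, 7288 and 7703 in knockout mice 1 to 3. The groups did not overlap, and the gap between the highest control and the lowest knockout was narrow beside the spread of the controls. The log2 change was 0.57 ± 0.15 (SE, adjusted p = 0.240). The dim second probe set of Uros, with group means of 135 and 184, had overlapping groups and a change of 0.37 (adjusted p = 0.514).

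Urod, the enzyme deficient in porphyria cutanea tarda, had intensities of 12621, 8812 and 11269 in control mice 1 to 3 and of 14438, 15193 and 15734 in knockout mice 1 to 3. Here the controls spread more widely than the knockouts (SDs of 1931 and 651). The log2 change was 0.49 ± 0.15 (SE, adjusted p = 0.301). This probe set has the suffix by which Affymetrix marks probes that can match other sequences. The other probe set of Urod lacks that suffix, read 5860 ± 1116 and 8510 ± 646 (SD, n = 3), and had a log2 change of 0.55 with groups that did not overlap.

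The enzymes of the mitochondrial end follow. Cpox, coproporphyrinogen oxidase, sits in the space between the mitochondrial membranes. Its brightest probe set read 10312, 8607 and 9721 in control mice 1 to 3 and 12109, 13745 and 14161 in knockout mice 1 to 3. Its log2 change was 0.48 ± 0.12 (SE, adjusted p = 0.224), with the smallest error among the 5 middle enzymes. The other 2 probe sets of Cpox had larger changes of 0.83 and 0.78, also with groups that did not overlap. All 3 probe sets of this gene thus pointed the same way.

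Ppox, the oxidase of the inner membrane that makes protoporphyrin IX, had intensities of 2800, 1871 and 2292 in control mice 1 to 3 and of 3253, 3682 and 3728 in knockout mice 1 to 3. The groups did not overlap, and the log2 change was 0.63 ± 0.17 (SE, adjusted p = 0.237). A second probe set agreed in direction with 295 ± 39.0 and 502 ± 34.2 (SD, n = 3), a change of 0.74. The third, the dimmest of the 19, had overlapping groups with means of 123 and 105 and a change of -0.18.

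Fech, the ferrochelatase whose loss causes erythropoietic protoporphyria, was read by 4 probe sets that disagreed. The brightest read 23618, 19038 and 22265 in control mice 1 to 3 and 22172, 22309 and 22783 in knockout mice 1 to 3. Its log2 change was 0.06, with an interval from -0.22 to 0.33 (adjusted p = 0.886). The next in brightness had a change of 0.20, and its highest control, at 14769, all but touched its lowest knockout, at 14773. The third read 11523 ± 1502 and 15223 ± 934 (SD, n = 3), with groups apart and a change of 0.41 ± 0.13 (SE, adjusted p = 0.310, and adjusted p = 0.0207 with an intensity trend and robust moderation). The dimmest, with means of 184 and 149, had a change of -0.27 and overlapping groups.

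**Figure D2:**
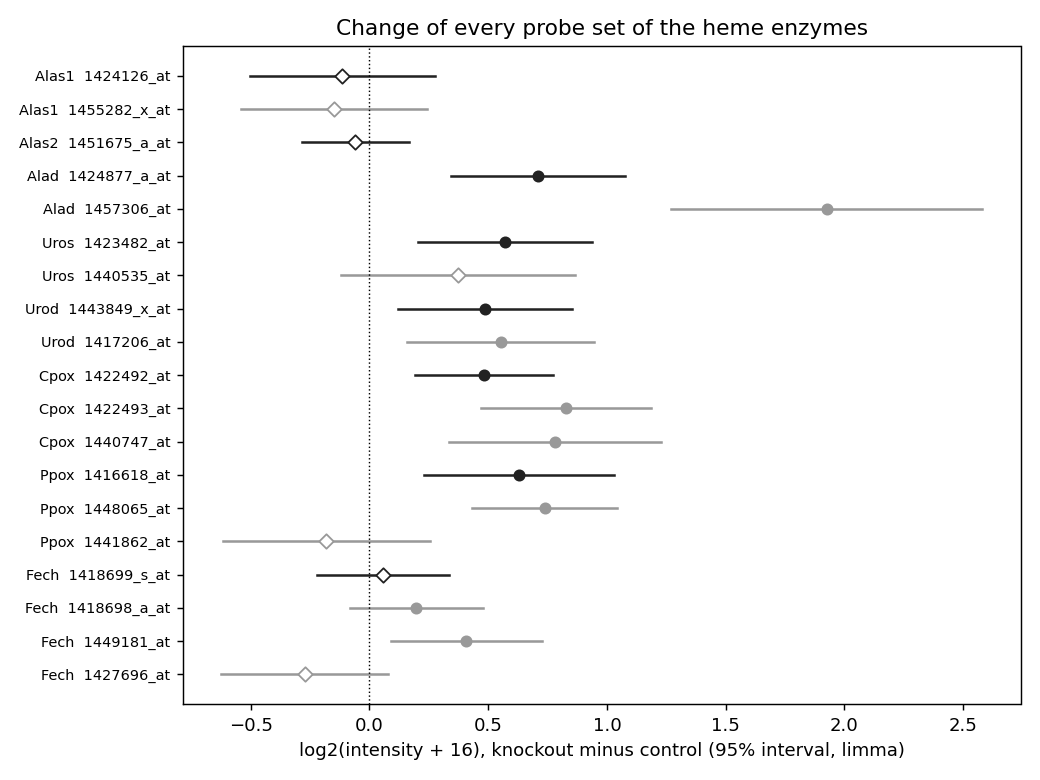
Change of all 19 probe sets in pathway order, as knockout minus control on the scale log2(intensity + 16) with 95% intervals from limma; black marks the brightest probe set of a gene and grey the others. Filled circles are the 12 probe sets whose groups did not overlap and open diamonds the 7 whose groups did; the dim Alad probe set stands farthest right at 1.93.

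Among all 19 probe sets, 14 had a change above 0 and 5 below. By gene, 6 of the 8 were above 0, against 49.8% of all genes, and 3 of the 8 above 0.5, against 4.3%. The groups did not overlap in 12, all with the knockout higher, where 10.6% of all probe sets had that pattern and 8.91% the reverse (19.5% either). By gene, 5 of the 8 had it, against 12.3% of the 18193 genes, and 0 had the reverse, against 9.23%. Bright genes as a whole leaned the same way. Among the 3324 genes with a mean intensity of at least 1000, which include all 8 enzymes, 28.9% had the knockout above the control without overlap and 13.9% had it below. In those bright genes 0.542% rose by limma, and 13.2% with an intensity trend and robust moderation, which called 5 of the 8 enzymes. The median change was 0.48 over the 8 enzymes, 0.04 over the 3324 bright genes and 0.00 over all genes. A change at least as large as that of Cpox was found in 254 of the bright genes, or 7.64%.

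The spread of changes depended on brightness. Over the 64 probe sets with a mean intensity of at least 20000, among them Alas2 and the brightest of Fech, the changes ran from -0.13 to 0.30 with a median of -0.01. Percentile 95 of the changes was 0.41 between 50 and 100, 0.42 between 200 and 500, 0.58 between 1000 and 2000, 0.63 between 5000 and 10000, 0.47 between 10000 and 20000 and 0.17 over the 64 brightest. It was 0.37 between 100 and 200, and from there it rose with brightness up to 10000 before it dropped. Percentile 5 rose throughout, from -0.44 between 50 and 100 to -0.20 between 5000 and 10000 and -0.09 over the 64 brightest. Only 19 of the 45037 probe sets were brighter than that of Alas2. Within a gene, a dimmer probe set had a larger change than the brightest for Alad, Urod, Cpox, Ppox and Fech. Other dimmer probe sets had a lower change than the brightest of their gene. These were Uros (0.37 against 0.57), Alas1 (-0.15 against -0.11) and the dimmest of Ppox (-0.18 against 0.63) and of Fech (-0.27 against 0.06). The part of brightness in the small changes of Alas2 and Fech was not tested.

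**Figure D3:**
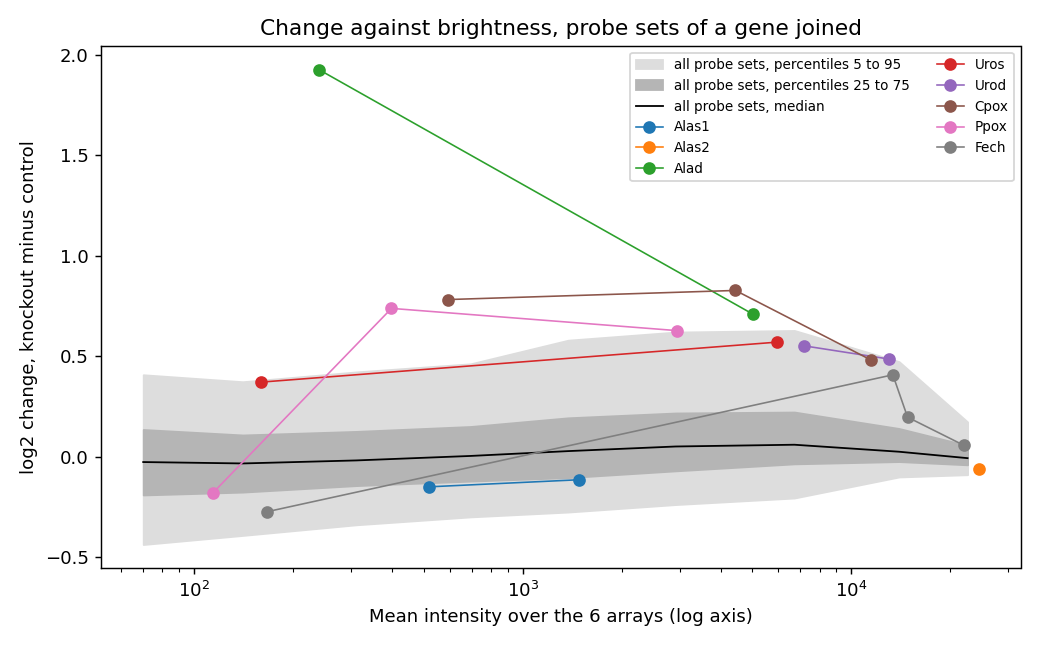
Log2 change of each probe set of the 8 enzymes (knockout minus control) against its mean intensity over 6 arrays on a log axis, with probe sets of a gene joined, over bands that hold percentiles 5 to 95 and 25 to 75 of all probe sets. The outer band narrows above 20000, where Alas2 and the brightest Fech probe set lie.

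The order of the mice was shared by most of the enzymes. For Alad, Uros, Urod, Cpox and Ppox alike, control mouse 2 was the lowest of the controls and control mouse 1 the highest. Knockout mouse 1 was the lowest of the knockouts and knockout mouse 3 the highest for all 5 as well. Fech had this same order on its brightest probe set. Over the 8 genes, control mouse 2 was the lowest control and control mouse 1 the highest in 7, all but Alas1. Set against the mean of the controls, the median of the 5 genes was 0.23, -0.22 and 0.03 in control mice 1 to 3 and 0.42, 0.61 and 0.69 in knockout mice 1 to 3 on the log2 scale. Control mouse 2 was the lowest control in 17 of the 19 probe sets, and in 51.3% of the 3324 bright genes. Without it, the median change of the 8 enzymes was 0.38 in place of 0.48. The same 5 genes then had groups apart with the knockout higher, and Alas2 had groups apart with the knockout lower.

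**Figure D4:**
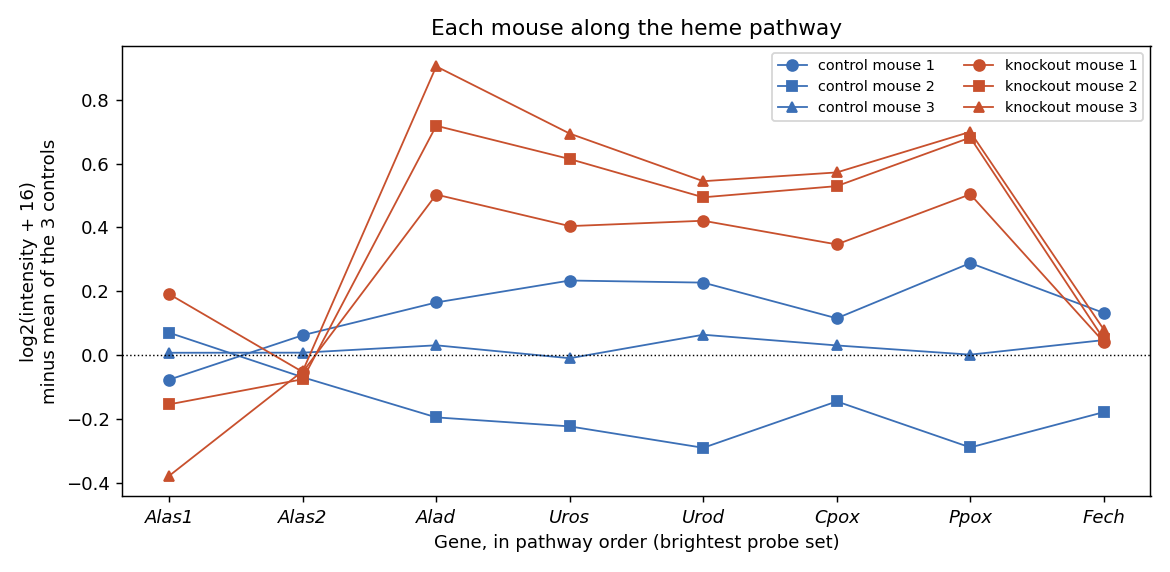
Log2(intensity + 16) of each mouse minus the mean of the 3 controls, for the brightest probe set of each enzyme in pathway order, with 1 line per mouse (blue control, orange knockout). The 6 lines run nearly parallel from Alad to Ppox, where knockout mouse 1 is the lowest and knockout mouse 3 the highest of the knockouts. They come close together at Alas2. At Fech the knockout lines meet, while the control lines stay spread.

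Alas2 kept the order within the controls, and knockout mouse 3 was its highest knockout, but its lowest was knockout mouse 2. Alas1 had the reverse, with control mouse 2 the highest control and knockout mouse 3 the lowest knockout. Over the 6 arrays, the genes most like Alas2 among 5401 genes with a mean intensity of at least 500 were Diaph3 (Pearson r = 0.999), Flot1 (r = 0.994) and Adipor1 (r = 0.99). Those most like Alas1 were Cd5l (r = 0.97), Itgb7 (r = 0.967) and Runx3 (r = 0.966). With 6 points that share their arrays, 21 genes reached r = 0.95 with Alas2 and 8 with Alas1, so these are descriptions only. Alas2 and Alas1 had r = 0.02 with each other.

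Most red cell markers outside the pathway stood higher in the knockout mice. Of the 12 erythroid markers, 10 were measured and none passed by limma over all probe sets, while 5 rose with an intensity trend and robust moderation (3.61% of all genes, 13.2% of bright genes). Their groups did not overlap in 8, all with the knockout higher (12.3% of all genes, 28.9% of bright genes), and their median change was 0.64. Rhag, the Rh-associated glycoprotein, had a change of 0.91 ± 0.12 (SE, adjusted p = 0.0736), and Epb42, or protein 4.2, one of 0.75 ± 0.15. Groups overlapped for Sptb, a spectrin, at 0.41, and for Epor, the erythropoietin receptor gene that carries the Cre, at -0.14. The summed intensity of the 10 was 70305, 53654 and 64379 in control mice 1 to 3 and 79960, 87547 and 90995 in knockout mice 1 to 3. Its order was that of the middle enzymes, within the controls and within the knockouts. The part of this in the enzymes' difference was not tested, and fewer cells of a type and less RNA per cell cannot be told apart in such samples.

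Among the marker lists of other cells, Itga2b was the only measured gene that passed by limma. With an intensity trend and robust moderation, Itga2b rose, as did Csf1r of the macrophage list (3.61% of all genes, 13.2% of bright genes). Igll1 and Vpreb1 of the B cell list, Mcpt8 of the basophil and mast cell list and Myb of the early progenitors fell (0.605% of all genes). The 12 neutrophil markers summed to between 220720 and 222951 in the controls and between 204195 and 212666 in the knockouts, with 7 genes lower and 0 higher without overlap (9.23% and 12.3% of all genes, 13.9% and 28.9% of bright genes) and a median change of -0.09. The 9 B cell markers summed to between 17433 and 19926 and between 13463 and 17604, so these sums overlapped. Their median was -0.36, led by Igll1 at -1.31, with 8 below 0 and 1 above. In 3 of them the groups were apart with the knockout lower (9.23% of all genes, 13.9% of bright genes). The 7 basophil and mast cell markers summed to between 7861 and 8054 and between 5117 and 7017, with a median of -0.30. In 3 of them the groups were apart with the knockout lower (9.23% of all genes, 13.9% of bright genes). All 8 markers of early progenitors were below 0, where 49.8% of all genes were above 0, with sums between 10304 and 10433 and between 6805 and 8572. In 4 of them the groups were apart with the knockout lower (9.23% of all genes, 13.9% of bright genes). Kit and Gata2 are in both this list and the basophil and mast cell list. The 10 macrophage markers, with sums between 10334 and 11619 and between 11225 and 12181, and the 6 of T and NK cells, between 2675 and 3185 and between 2641 and 3129, overlapped. The 7 megakaryocyte markers summed to between 2183 and 2597 and between 4792 and 6139, and Itga2b, an integrin, rose by 2.74 (limma, adjusted p = 0.000787). Itga2b alone read 513 ± 44.6 in control and 3520 ± 274 in knockout mice (SD, n = 3), so the gap between the sums is largely its own. Of the 7, 4 had a change above 0 and 3 below. Groups were apart with the knockout higher in 1 and lower in 1 (12.3% and 9.23% of all genes). The lowest value deposited for these markers was 1, that of Gp6 of the megakaryocyte list in knockout mouse 3. Those with a mean intensity under 100 were 3 of the megakaryocyte list and 1 each of the T and NK and the basophil lists. Their part in the enzymes' difference was not tested.

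The rest of the heme economy was described from lists of genes, whose counts are set beside the shares among all genes and among the 3324 bright genes. Of 12 measured genes for the passage of porphyrins and heme across membranes, none passed by limma and 5 rose with an intensity trend and robust moderation (3.61% of all genes, 13.2% of bright genes). In this list 6 had groups apart with the knockout higher (12.3% and 28.9%) and 0 with it lower (9.23% and 13.9%), and the median change was 0.41. Abcb6, which carries porphyrins, had a change of 0.84 ± 0.13 (SE, adjusted p = 0.0992), and Tspo, an outer membrane protein that binds porphyrins, one of 0.51. Of 14 measured genes for iron supply and iron-sulfur clusters, none passed. With the trend 2 rose (3.61% of all genes, 13.2% of bright genes), near the share of bright genes, though some of the 14 are dimmer. In 8 the groups were apart with the knockout higher (12.3% of all genes, 28.9% of bright genes), and the median was 0.22. In that list Steap3, a ferric reductase, had a change of 1.22 and Tfrc one of 0.38.

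Of 19 genes known to regulate the synthases or their protein, none passed. With the trend 5 rose (3.61% of all genes, 13.2% of bright genes). In 7 the groups were apart with the knockout higher (12.3% of all genes, 28.9% of bright genes). In 3 they were apart with it lower (9.23% of all genes, 13.9% of bright genes), and the median was 0.05. The counts of groups apart over all 19 are near the shares of bright genes, but the list also holds dimmer genes. Those apart with the knockout higher were Tal1, Zfpm1, Nfe2, Foxo3, Gata1, Klf1 and Lmo2, each with both group means above 1000. Those apart with it lower were Clpp, Lonp1 and Suclg1, of which only Suclg1 had means above 1000. Tal1, a transcription factor that works with Gata1, had a change of 0.91 ± 0.18 (SE, adjusted p = 0.157), and Zfpm1, the cofactor of Gata1, one of 0.65. Gata1 itself read 1114 ± 219 in control and 1801 ± 138 in knockout mice (SD, n = 3), a change of 0.70. Alas2 is a known target of Gata1. Of 8 genes of heme breakdown and heme sensing, none passed. With the trend 3 rose (3.61% of all genes, 13.2% of bright genes). In 3 the groups were apart with the knockout higher (12.3% of all genes, 28.9% of bright genes), and the median was 0.14. Eif2ak1, the kinase that halts translation when heme runs short, had a change of 0.77 ± 0.14 (SE, adjusted p = 0.131) and Bach1, a repressor that heme inactivates, one of 0.38. Hmox1, the heme oxygenase, had one of -0.09.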

How the data were processed

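The authors deposited 1 table of linear intensity values per probe set and array; the labels name biotin-labelled cRNA on Affymetrix arrays. No source used here names the summarising software, the background correction or the scaling, and detection calls were not analysed here. Between 1.72% and 1.94% of values per array were exactly 1. Platform annotation gave 1 symbol for 34945 probe sets, several for 932 and none for 9160. Log2 medians and interquartile ranges differed by at most 0.06 and 0.07, under the limit of 0.1 for normalizing again. Knockout was compared with control by limma 3.58.1 in R 4.3.3 on log2(intensity + 16), with no trend of variance on intensity. Tests were two-sided, and p-values were adjusted by Benjamini-Hochberg across the 45037 probe sets. A gene stands for its brightest probe set. Every probe set of the 8 enzymes is named, and of each pathway list the 2 genes with the smallest p, since none passed; from marker lists those past the threshold; and for Alas2 and Alas1 the 3 genes most alike over the arrays. Gata1, Hmox1, Igll1, Vpreb1, Csf1r, Mcpt8, Myb, Gp6, Rhag, Epb42, Sptb, Epor, Tfrc, S100a8 and Slc4a1 were chosen after their values were seen. The regulators of the synthases with groups apart were also named after their values were seen. The fit was tested on simulated data for this comparison, where 74% of probe sets raised by 1 log2 unit and 100% of those raised by 2 were recovered. Changes were placed only in the brighter 50% of probe sets. Smaller changes, such as the 0.48 to 0.71 of the 5 middle enzymes, were not simulated. The labels name separate mice, and their number limits the precision. Members and lists were chosen with earlier results of these data known. Alternatives covered scaling, pseudocount, filters, moderation, array weights, the replicate block and each mouse left out.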

Additional observations from a re-analysis of the deposited data

How the results depend on the processing

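The count of 0 risen enzyme probe sets became 4 with a pseudocount of 64, 5 in the brightest 50% of probe sets, 10 in the brightest 25% and 11 with an intensity trend and robust moderation. The last setting also called 11 without control mouse 2, an alternative chosen after seeing the data, and these were the same probe sets. Leaving out a mouse in the fit without the trend gave 0 to 1. No enzyme probe set fell under any setting. Over all probe sets the counts were 63 risen and 3 fallen, and they became 38 and 0 with a pseudocount of 1, 508 and 50 with one of 64, 708 and 145 in the brightest 50%, 1302 and 352 in the brightest 25%, and 1206 and 239 with the trend (901 and 127 without control mouse 2). Fewer were called on leaving out a mouse (27 to 41 risen and 0 to 1 fallen). One probe set per gene gave 77 and 7, and array weights 74 and 5. The cause of these differences was not tested.

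The median change of the 8 enzymes was 0.48, with 0.39 after quantile and 0.38 after cyclic loess normalization, and 0.38 to 0.57 on leaving out a mouse. The same 5 enzymes had groups apart with the knockout higher under every setting run. Groups were also apart with the knockout lower for Alas2 after cyclic loess and without control mouse 2, and for Alas1 without knockout mouse 1. When the probe sets of each gene were averaged, the median was 0.43, and Alad had 1.32 in place of 0.71, Ppox 0.40 in place of 0.63 and Fech 0.10 in place of 0.06. The change of Fech turned to -0.059 after cyclic loess and to -0.033 without control mouse 2 (also with the trend), with -0.033 to 0.12 on leaving out a mouse. That of Alas1 ran from -0.27 to 0.018, the latter without knockout mouse 3. The difference between Alas2 and Alas1 turned to -0.011 after cyclic loess and -0.015 without control mouse 2 (also with the trend), with -0.083 (without knockout mouse 3) to 0.20 on leaving out a mouse.

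Mice with the same number did not deviate together (correlations of -0.03, -0.01 and -0.04), so no pairing by number was seen. The labels do not say whether the numbers pair mice, and 3 mice per group cannot exclude it. With the replicate block 0 enzyme probe sets and 14 of all probe sets rose, and 0 fell.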
